A study of Mus musculus with 104 samples.

Results

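The genes described here build and use the microtubule tracks of the neuron. They are 36 of the 45808 gene rows in the deposited table, chosen by name: 8 tubulins, 9 microtubule-associated proteins and stathmins, 9 kinesins with their light chains, and 10 dynein and dynactin subunits. All 36 were expressed in these neurons, defined as a pooled level of at least 10 CPM (counts scaled to the same total in each library) with counts in 25% or more of a group's libraries, a rule met by 9113 genes. The libraries come from single mouse neurons of the substantia nigra, each drawn into a patch pipette from a brain slice, converted to cDNA by Smart-seq2 and labelled as a dopaminergic neuron. Titles place 38 libraries in an experiment group and 66 in a control group. The series is about reporters that show Lewy pathology in living brain, meaning the inclusions found in Parkinson disease, and its design text describes picking neurons of the pars compacta with inclusions of α-Syn-6H-EGFP, by its name an EGFP reporter of alpha-synuclein. The labels used here do not say what the control neurons carried, and give no strain, age or agent other than tribromoethanol, the anaesthetic used before slicing. Since no animal is named for any library, a group stands as 1 sample here, and differences are given without a test.

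Microtubules are hollow polymers of alpha- and beta-tubulin, each encoded by several genes whose proteins differ mostly in the acidic tail at the carboxyl end. Structural proteins such as tau and the MAP1 and MAP2 families bind the polymer, whereas stathmins bind free tubulin dimers and limit growth. Kinesins carry vesicles, mitochondria and other cargo mostly toward the axon terminal, and cytoplasmic dynein with its activator dynactin carries cargo back to the cell body. Dopaminergic neurons of the substantia nigra have very long and highly branched axons, and these transcripts serve that transport.

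The coding ends of the beta-tubulins are shown as an example of how the member sequences differ. The last 90 coding bases before the stop codon of each beta-tubulin member are given from the GENCODE M21 transcripts of the mouse build GRCm38. Capitals mark bases that differ from Tubb5, or that have no partner there in a global alignment.
Tubb2a: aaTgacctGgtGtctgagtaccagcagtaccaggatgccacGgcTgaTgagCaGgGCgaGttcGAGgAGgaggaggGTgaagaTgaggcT
Tubb2b: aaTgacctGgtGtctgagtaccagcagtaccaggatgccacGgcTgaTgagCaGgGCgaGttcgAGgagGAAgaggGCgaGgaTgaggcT
Tubb3: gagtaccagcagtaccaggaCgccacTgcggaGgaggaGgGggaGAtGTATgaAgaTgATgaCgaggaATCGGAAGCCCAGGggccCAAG
Tubb4a: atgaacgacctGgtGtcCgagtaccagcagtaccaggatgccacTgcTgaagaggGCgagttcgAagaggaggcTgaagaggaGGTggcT
Tubb5: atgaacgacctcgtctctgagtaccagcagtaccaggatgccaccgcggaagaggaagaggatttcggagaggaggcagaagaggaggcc
The stretches of Tubb2a (34074471 to 34074560) and Tubb2b (34127474 to 34127563) lie on the minus strand of chromosome 13. Tubb4a (57080693 to 57080782) and Tubb5 (35834985 to 35835074) are on the minus strand of chromosome 17, and Tubb3 (123421590 to 123421679) is on the plus strand of chromosome 8. Of these bases, 13 are marked in Tubb4a, 20 in Tubb2a, 21 in Tubb2b and 34 in Tubb3, the form used as a marker of neurons. Identity with Tubb5 over these stretches was 82.8% for Tubb4a and 51.9% for Tubb3. Over the whole coding sequence it was 83.9% and 81.2%. In these values bases without a partner counted as not identical. The coding sequence of Tubb3 has 1353 bases against 1335 for Tubb5, so its stretch starts further along. The first bases of the Tubb5 stretch thus had no partner in it, which lowers the 51.9%. A marked base need not change the protein, and the stretches were not translated here.

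The likeness extends along the transcripts and bears on how reads are assigned. Over the coding sequence Tuba1a and Tuba1b were 98.3% identical, Tubb2a and Tubb2b 96.5%, and Tuba1a and Tuba4a 84.7%. Of the 50-base words of the longest coding transcript, 72.9% in Tuba1a, 73.8% in Tuba1b, 49.6% in Tubb2a, 39.3% in Tubb2b and 36.5% in Stmn1 also occurred in a transcript of another gene. Another 8 members shared under 5% of their words and 23 shared none. What the authors' counting did with reads that fit several genes was not given in the sources used here, which leaves the split within Tuba1a and Tuba1b, and within Tubb2a and Tubb2b, uncertain.

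Libraries held 116567 to 3094036 gene counts in the experiment group (median 960027) and 153770 to 2577694 in the control group (median 1039850). Other measures of the libraries moved with the groups: the median share of mitochondrial genes was 4.33% in experiment and 2.72% in control libraries (3.96% and 1.65% in title set 1, 5.40% and 3.78% in set 2, defined below). ERCC spike-ins had medians of 0.421% and 0.251%, and detected genes 7354 and 8548, and the part of these in the results was not tested. Every library had counts of the dopaminergic markers Th, Slc6a3, Slc18a2 and Ddc. Of 38 experiment and 66 control libraries, Nr4a2 had counts in 37 and 65, En1 in 37 and 66, Pitx3 in 30 and 56, and Drd2 in 30 and 60. The summed level of these 8 dopaminergic markers had a median of 16043 CPM (578 to 23632) against 21433 (2016 to 34449). Summed markers of other cell types had higher medians in the experiment libraries: 659 CPM (22.02 to 8643) against 423 (118 to 2565) for 9 astrocyte markers, 852 (0 to 10019) against 553 (38.7 to 9521) for 8 of oligodendrocytes, 156 (0 to 3167) against 131 (0 to 2970) for 8 of microglia and 140 (0 to 1750) against 51.1 (0 to 1038) for 5 of GABAergic neurons. Within title set 2 the microglial median was lower in experiment libraries, 148 against 189 CPM. No marker was at 0 in a whole group, and the part of these cells in the results below was not tested. The control titles switch letter case past number 37, and the experiment titles were divided past number 35 by record order. The resulting 2 title sets, which no label calls a batch, held 21 experiment with 31 control libraries and 17 with 35. Each set was divided again in record order into 2 blocks, which no label calls a batch either. The value of a set can mix blocks that differ. In a library, less RNA of the neuron and more of other cells cannot be told apart.

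By the median of the member ratios, the group stood at a near level in both kinds of neuron. The summed level of the 36 members was somewhat lower in experiment libraries, with a median of 20980.5 CPM (9172 to 28635) against 23076.6 (15250 to 28760). Its experiment median was the lower one in both title sets, 20946 against 22605 CPM in set 1 and 21304.5 against 23173 in set 2. By pooled CPM, in which the counts of a group are summed, the median log2 ratio of experiment over control was -0.03 over the 36 members and -0.03 over all 9113 expressed genes. Of the members, 13 were higher and 16 lower both by pooled CPM and by the mean of the library levels, which weights libraries equally, and 7 differed in direction. Over all expressed genes the same counts were 3723 higher, 4176 lower and 1214 differing. For 30 members the pooled log2 ratio was within 0.32 of 0 (called the smaller limit here). Among the 9113 expressed genes this held for 4408. No member lay beyond 1.5-fold by both weightings, where 7.77% of all expressed genes were higher and 11% lower. Because 32 members had a pooled level of at least 100 CPM, the 2086 expressed genes at that level were also counted, a background added after the values were seen: 2.44% of them were higher and 4.03% lower by 1.5-fold.

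Past the smaller limit by both weightings, Map1a was higher and Tuba4a and Stmn1 were lower, against 17.5% higher and 22% lower among all expressed genes and 10.9% and 14.3% among those at 100 CPM or more. With 36 members these are small counts, and nothing particular to the members is read from them. For every member the ranges of the groups overlapped. The ratio pointed in opposite directions in the title sets for 22 of the 36 members and in the same direction for 14, of which 7 were higher and 7 lower. The same split over all expressed genes was 4073 opposite, 2162 higher and 2878 lower in both sets.

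**Figure D1:**
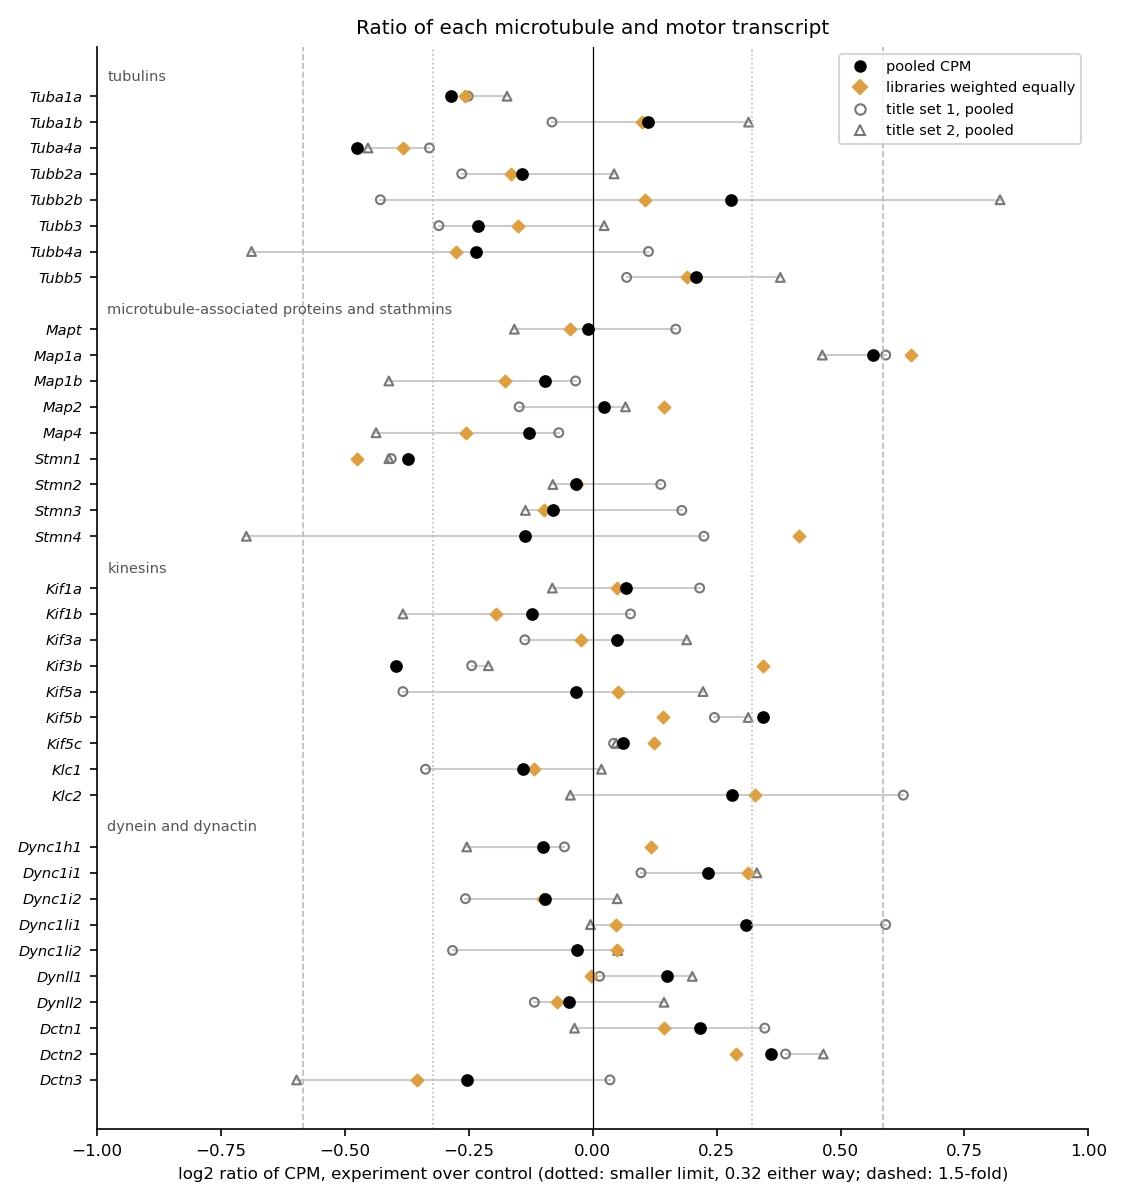
Log2 ratio of CPM, experiment over control, for each of the 36 members, by class. Filled circles show pooled CPM, diamonds the mean with libraries weighted equally, open circles title set 1 and triangles title set 2. By pooled CPM Map1a lies farthest to the right and Tuba4a farthest to the left, title-set values of several other members lie as far out, and most members lie within the dotted lines of the smaller limit by pooled CPM.

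In control libraries Tuba1a had the highest level per length after Stmn3, and Tubb2b the lowest of all members. Of the 8 tubulins, 3 were higher and 5 lower whichever weighting was used, and their median log2 ratio was -0.19. The summed level of the 8 had a median of 6956 CPM over experiment libraries (2889 to 16456) and 7940 over control libraries (4344 to 14710).

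Tuba1a encodes the main alpha-tubulin of postmitotic neurons and lies on chromosome 15, 98949837 to 98953703. Its level ran from 575 through a median of 1897 to 5719 CPM in experiment libraries and from 778 through 2365 to 5518 in control libraries. The pooled ratio was 0.820 (95% interval 0.813 to 0.827, which like every interval here covers counting error only), and 0.840 and 0.887 in title sets 1 and 2. Most experiment libraries were on the low side, 12 of 38 lying above the control median. The near-identical Tuba1b, which is expressed widely outside the nervous system, was not lower: 295, 921 and 2595 CPM (lowest, median, highest) against 328, 888 and 1704, with a ratio of 1.08. Title set 1 gave 0.945 and set 2 gave 1.24. Added together, which sets aside only how reads were split between them, Tuba1a and Tuba1b had a ratio of 0.888. Both shared the most words with Tuba1c, and with Tuba1c added the ratio was again 0.888. Any reads left uncounted because they fit several genes would be missing from these sums.

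Tuba4a, another alpha-tubulin gene, lies on chromosome 1, 75214228 to 75219865, and gave the lowest pooled ratio of all members (with libraries weighted equally Stmn1 was lower). Experiment libraries ranged from 5.08 to 891 CPM around a median of 318, and control libraries from 0 to 973 around 440. The pooled ratio was 0.719 (0.704 to 0.733) and that of the equally weighted means 0.767. It was below 1 in both title sets, at 0.796 and 0.730, and 11 of 38 experiment libraries lay above the control median. Without the 25% of libraries highest in markers of astrocytes, oligodendrocytes and microglia, which left 25 experiment and 53 control libraries, its pooled log2 ratio was -0.51, against -0.48 with them. Experiment libraries were thus spread over the whole control range with more of them in its lower part.

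Among the beta-tubulins, Tubb5, the form common to most cell types, was the one with more experiment libraries above the control median, 27 of 38. Its levels were 87.1, 999 and 2298 CPM against 248, 773 and 1830, and its ratio was 1.16 (1.14 to 1.17), with 1.05 in title set 1 and 1.30 in set 2. Tubb3 had levels of 46.5, 960 and 2917 CPM against 236, 1172 and 2477, and a ratio of 0.852 that was 0.806 in set 1 and 1.02 in set 2. For Tubb2a, a major beta-tubulin of brain, the values were 0, 628 and 1448 CPM against 189, 777 and 1487, with a ratio of 0.906. These 3 beta-tubulins therefore differed little between groups next to the spread within them.

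Tubb4a, a beta-tubulin of brain that oligodendrocytes also express strongly, differed between the title sets and within set 1. Its levels were 365, 1090 and 2562 CPM in experiment libraries and 229, 1435 and 3284 in control libraries. The pooled ratio of 0.850 was made of 1.08 in set 1 and 0.620 in set 2. In set 2, 1 of 17 experiment libraries lay above the control median of that set, and in set 1 10 of 21 did. Within set 1 the pooled log2 ratio was 0.52 in the first block and -0.42 in the second. Within set 2 it was -0.50 and -1.22. The summed oligodendrocyte markers, by contrast, had higher experiment medians in both sets, 1450 against 1296 CPM and 402 against 290, and their part in the value of Tubb4a was not tested. Tubb2b, a beta-tubulin of developing neurons, was near the limit of detection: 27 of 38 libraries had a count in experiment and 44 of 66 in control, and after thinning each library to 400000 counts 24 of 34 and 34 of 60 did. Its pooled level was 15.5 against 12.8 CPM, and its ratio was 0.743 in set 1 and 1.77 in set 2.

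**Figure D2:**
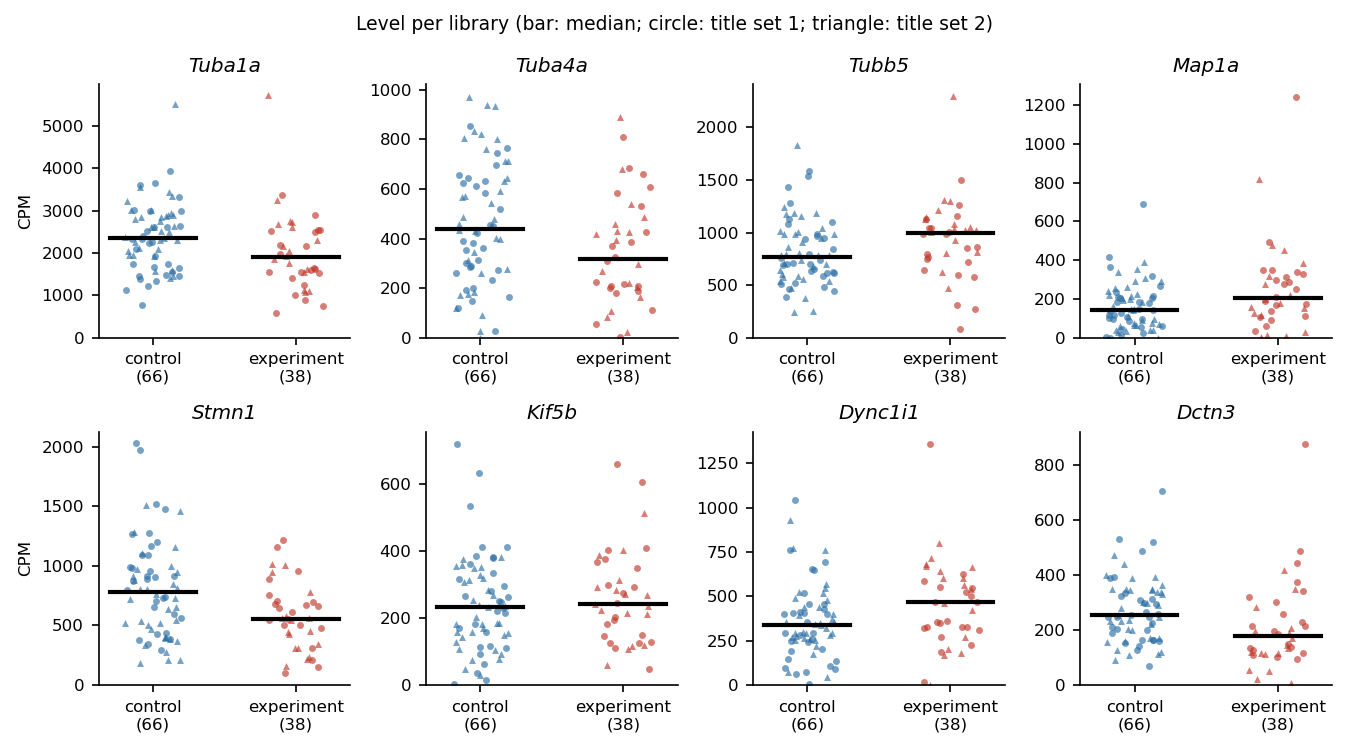
CPM in each library for 8 members, with control libraries in blue, experiment libraries in red, circles for title set 1, triangles for title set 2 and a bar at the group median. The clouds overlap in each panel; the experiment median is lower for Tuba1a, Tuba4a, Stmn1 and Dctn3, higher for Tubb5, Map1a and Dync1i1, and close for Kif5b (243 against 231 CPM).

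Within a library, the share that each gene takes of its family does not depend on the library total. Shares were computed from counts divided by exon length over the members only, so the beta-tubulin total leaves out Tubb4b. Tuba1b took 29.1% of the alpha-tubulin of the experiment group and 23.6% of the control group, and Tuba1a 65.5% and 69.9%. Over libraries the share of Tuba1b had a median of 28.1% (10.04 to 55.9) against 23.6% (12.2 to 58.6), and 30 of 38 experiment libraries lay above the control median. That direction was seen in both title sets, with medians of 28.4% and 25.6% in set 1 and 27.8% and 23.1% in set 2. Reads that fit both genes could move this share, and their part was not tested. The level of a share also depends on the length used: with transcript length in place of merged exons, Stmn2 took 16.4% of control stathmin in place of 7.87%, Stmn3 55.6% in place of 72.05%, and Dync1i1 67.2% of its pair in place of 83.1%, while the differences between groups stayed within 1 SD of the control libraries.

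Tubb5 took 15.4% of the beta-tubulin members in the experiment group and 12.005% in the control group, with 26 of 38 libraries above the control median. By pooled counts, Tubb3 and Tubb4a took the largest shares in both groups: 29.6% and 31.8% in experiment, 31.3% and 33.8% in control. Tubb2a was at 22.8% and 22.6%, and Tubb2b below 1% in both. That order did not hold in the experiment libraries of title set 2, where the median share was 18.9% for Tubb4a and 24.4% for Tubb2a. In control libraries of that set these medians were 30.8% and 23.5%. The alpha-tubulin of these neurons was thus mostly Tuba1a, and the beta-tubulin was divided among several genes.

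**Figure D3:**
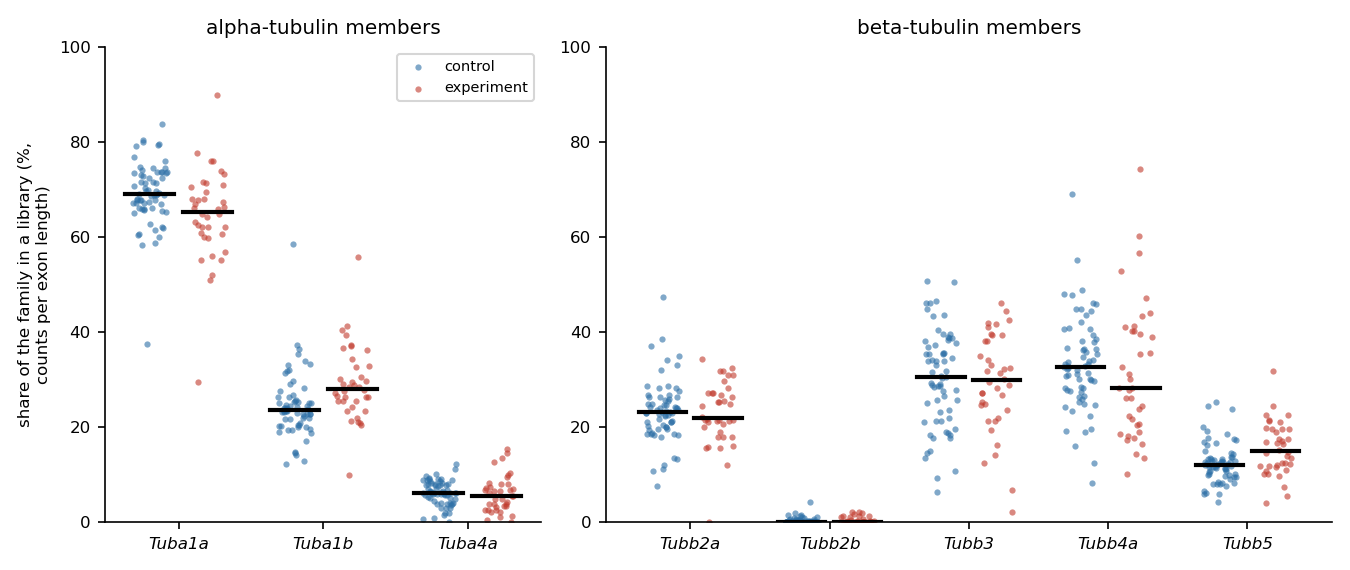
Share of the alpha-tubulin and beta-tubulin members taken by each gene in each library (percent, from counts per exon length), with a bar at the median. Experiment libraries (red) lie higher for Tuba1b and Tubb5 and lower for Tuba1a than control libraries (blue), with wide overlap.

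Of the 9 microtubule-associated proteins and stathmins, 2 were higher, 6 lower and 1 mixed, with a median log2 ratio of -0.08. That median was 0.14 in title set 1 and -0.16 in set 2. The summed level of the 9 had a median of 7653 CPM (2683 to 14517) in experiment libraries and 8754 (5190 to 11782) in control libraries. In both title sets the experiment median of this sum was the lower one. Map1a and Map1b encode related proteins that are cut into heavy and light chains, the first prominent in mature dendrites and axons, the second in growing axons.

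Map1a (chromosome 2, 121289600 to 121310832) had the highest ratio of all members. Levels ran from 1.98 through 205 to 1243 CPM in experiment libraries and from 0 through 145 to 691 in control libraries. The pooled ratio was 1.48 (1.44 to 1.52), just inside the 1.5-fold limit, and the ratio of equally weighted means was 1.56. It was 1.51 in set 1 and 1.38 in set 2, and 26 of 38 experiment libraries lay above the control median. The single highest experiment library held 9.48% of the group's Map1a counts. Without the libraries highest in those glial markers, the pooled log2 ratio of Map1a was 0.28 in place of 0.57 and no longer passed the smaller limit.

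Map1b was the microtubule-associated protein gene with the highest level per length in both groups, and its level was 893, 3040 and 7760 CPM against 1169, 3558 and 8877. Its pooled ratio was 0.935, with 0.976 in set 1 and 0.752 in set 2. Map1a made up 8.36% of the MAP1 pair in the experiment group and 5.45% in the control group, and 29 of 38 experiment libraries lay above the control median of that share. The experiment median of the share was above the control median in both title sets.

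Mapt, which encodes tau, stood at a near level in both groups: 42.9, 609 and 1035 CPM against 130, 592 and 1477, with a ratio of 0.993 (0.977 to 1.01) and 21 of 38 experiment libraries above the control median. The title sets pointed in opposite directions, with a ratio of 1.12 in set 1, where 18 of 21 experiment libraries lay above that set's control median, and 0.896 in set 2, where 6 of 17 did. Within set 1 the pooled log2 ratio of Mapt was 0.53 in the first block and -0.18 in the second. Map2, the marker of dendrites, had values of 0, 188 and 497 CPM against 29.4, 149 and 657 and a ratio of 1.02. For Map4, which binds microtubules in most cell types, the values were 1.07, 458 and 1628 CPM against 23.7, 542 and 1295, and the ratio was 0.914. The difference of its mean log2(CPM + 1), a scale that weights low libraries more, was -0.60, where the median of all expressed genes was -0.38 and that of the members -0.11.

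The stathmins differed among themselves. Stmn1 (chromosome 4, 134468320 to 134473843), the widely expressed member that is regulated by phosphorylation, was lower: 104, 555 and 1218 CPM against 189, 782 and 2029. Its ratio was 0.772 (0.761 to 0.784) pooled, 0.719 with libraries weighted equally, and 0.754 and 0.752 in the title sets. With 7 of 38 libraries above the control median, it had the lowest such count of the 36 members. In the libraries left without those highest in glial markers, its log2 ratio was -0.29 in place of -0.37 and no longer passed the smaller limit.

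Of the neuronal stathmins, Stmn2 and Stmn3 did not share that difference. Stmn2, which marks axon growth and regeneration, was at 121, 896 and 1947 CPM against 391, 870 and 1902, with a ratio of 0.976. Stmn3 was at 295, 1515 and 2449 CPM against 676, 1632 and 3791, with a ratio of 0.946. Stmn4 was low, at 14.9 against 16.4 CPM pooled, and had a count in 27 of 38 and 56 of 66 libraries. Its ratio was 0.909 pooled but 1.33 with libraries weighted equally, and 1.17 and 0.616 in the title sets. The direction of Stmn4 thus depends on the weighting and on the set. Stmn1 took 16.6% of the stathmin counts per length in the experiment group and 19.7% in the control group, and Stmn3 74.6% and 72.05%, so Stmn3 was the main stathmin transcript of both groups.

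Kinesin transcripts stood at near levels. Of 9 members, 4 were higher, 2 lower and 3 mixed, none lay past the smaller limit by both weightings, and the median log2 ratio was 0.05. Their summed level had a median of 3277 CPM (1932 to 4839) in experiment libraries and 3379 (1384 to 4521) in control libraries.

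The heavy chains of conventional kinesin, the kinesin-1 motor, are Kif5a and Kif5c, both neuronal, and Kif5b, which all cells use. Kif5c was at 70.5, 503 and 935 CPM against 32.5, 443 and 900, with ratios of 1.04 pooled and 1.03 in each title set. Kif5a was at 12.8, 353 and 866 CPM against 0, 392.4 and 746. Its ratio was 0.977 pooled, 0.767 in set 1 and 1.17 in set 2, so the sets pointed in opposite directions. Kif5b was at 47.4, 243 and 661 CPM against 3.07, 231 and 720, and its ratio was 1.27 (1.24 to 1.30) pooled and 1.10 with libraries weighted equally. Although its ratio was above 1 in both sets (1.19 and 1.24), 21 of 38 experiment libraries lay above the control median, and the medians were close. Kif5c, Kif5a and Kif5b took 44.2%, 32.9% and 22.98% of the heavy-chain counts per length in the experiment group and 45.03%, 35.7% and 19.2% in the control group.

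Light chains link kinesin-1 to its cargo. Klc1 was at 17.5, 992 and 1510 CPM against 255, 1041 and 1895, a ratio of 0.907. Klc2 was much lower in level per length, and its ratio of 1.21 was made of 1.54 in set 1 and 0.969 in set 2. Klc1 was thus the main light chain of the pair in both groups.

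The kinesin-3 motors Kif1a and Kif1b carry synaptic vesicle precursors and mitochondria. Kif1a was at 19.9, 391 and 1009 CPM against 2.78, 405 and 970 with a ratio of 1.05, and Kif1b at 20.3, 268 and 899 against 13.01, 287 and 1074 with a ratio of 0.918. A single library held 16.5% of the experiment counts of Kif1a and 20.2% of those of Kif1b. Without the library holding most of its counts the ratio of Kif1a was 0.940 and that of Kif1b 0.787. The title sets differed for both genes, 1.16 and 0.945 for Kif1a and 1.05 and 0.767 for Kif1b.

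Kif3a and Kif3b form the kinesin-2 motor together. Kif3a stood at 3.28, 353 and 882 CPM against 0, 365 and 1116, with a ratio of 1.03. Kif3b had a pooled ratio of 0.759 but a ratio of 1.27 with libraries weighted equally, so its direction depends on the weighting. Kif3b was counted in 20 of 38 libraries of the experiment group and 45 of 66 of the control group, or 17 of 34 and 40 of 60 after thinning. One control library held 18.1% of the control counts. The partners thus had very different levels, 101 and 4.94 CPM per kilobase of exon in the experiment group and 97.3 and 6.51 in the control group.

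Cytoplasmic dynein is a large complex built on the motor heavy chain Dync1h1. Of the 10 dynein and dynactin members, 4 were higher, 3 lower and 3 mixed, none was past the smaller limit by both weightings, and the median log2 ratio was 0.06. Their summed level had a median of 2590 CPM (1122 to 3950) in experiment and 2507 (1237 to 3559) in control libraries. Dync1h1 itself was at 0, 202 and 1108 CPM against 4.14, 210 and 773. Its ratio was 0.933 pooled and 1.08 with libraries weighted equally.

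Intermediate chains hold the complex together and bind dynactin. Dync1i1, the neuronal form, was at 0, 466 and 1361 CPM against 6.50, 340 and 1044, a ratio of 1.17 (1.15 to 1.20) with 24 of 38 experiment libraries above the control median. It was above 1 in both title sets, at 1.07 and 1.26. Dync1i2, the general form, was at 0, 162 and 330 CPM against 0.771, 153 and 749, with a ratio of 0.935. Dync1i1 made up 86.1% of the pair per length in the experiment group and 83.1% in the control group, so the neuronal form was the main one in both.

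The light intermediate chains, which bind cargo adaptors, and the LC8 light chains Dynll1 and Dynll2, shared hubs of many complexes, had pooled ratios within the smaller limit. Dync1li1 had a pooled ratio of 1.24, but the equally weighted ratio was 1.03, and the title sets gave 1.51 and 0.997. Within set 1 its pooled log2 ratio was 1.17 in the first block and -0.33 in the second. Dync1li2 had a ratio of 0.978. Dynll1 was at 13.3, 222 and 530 CPM against 42.9, 228 and 1158 with a ratio of 1.11, and Dynll2 had a ratio of 0.967. In each pair the first gene took the larger share in both groups: Dync1li1 69.2% and 63.9%, and Dynll1 60.4% and 57.1%.

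Dynactin couples dynein to its cargo and track. Dctn2, the dynamitin subunit, had a ratio of 1.28 (1.26 to 1.31) pooled, 1.22 with libraries weighted equally, and 1.31 and 1.38 in the title sets. Its levels were 0, 376 and 965 CPM against 0, 330 and 1079, and 22 of 38 experiment libraries lay above the control median. Dctn1, the large p150 subunit that grips the microtubule, was at 0, 368 and 1266 CPM against 52.9, 367 and 958. Its ratio of 1.16 included 1 library that held 21.9% of the experiment counts, without which it was 0.983, and the medians were close. Dctn3, the smallest of these subunits by coding length, was at 6.86, 178 and 876 CPM against 69.96, 253 and 704, with a ratio of 0.839 that was 1.02 in set 1 and 0.661 in set 2. Within set 2 the pooled log2 ratio of Dctn3 was -0.30 in the first block and -1.55 in the second. For Dctn2 it was 0.74 and -0.15. The dynactin subunits thus did not move in 1 direction.

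Per kilobase of merged exon, the order of levels was much the same in both groups. In control libraries Stmn3 stood at 1503 pooled CPM per kilobase and Tuba1a at 1342, ahead of Tubb4a (696), Tubb3 (646), Tubb2a (466), Tuba1b (453) and Stmn1 (410). At the other end were Kif3b (6.51), Klc2 (5.86) and Tubb2b (5.57). Among motor subunits Klc1 and Dctn3 were highest, both at 249, whereas the heavy chain Dync1h1 was at 15.5. In experiment libraries Stmn3 was at 1422 and Tuba1a at 1101, with Tubb4a at 591 and Tubb3 at 550. Merged exons can be far longer than a single transcript, 5602 against 2073 bases for Stmn2, and with the length of the transcript of longest coding sequence, an alternative added after the values were seen, the control level of Stmn1 went from 410 to 744 and Stmn2 from 164 to 444 per kilobase. Stmn3, Tuba1a and Tubb2b kept their places at the ends of the order.

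**Figure D4:**
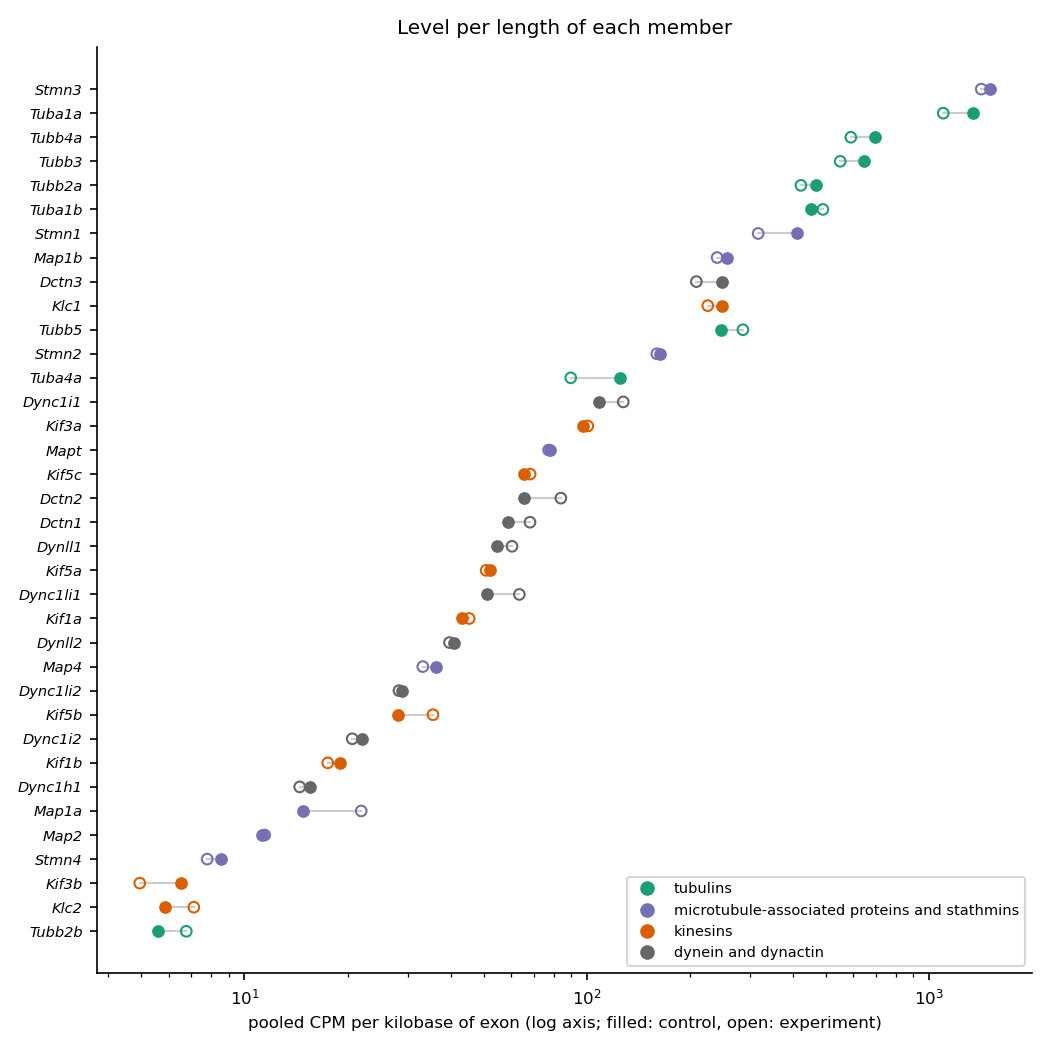
Pooled CPM per kilobase of exon for the 36 members on a log axis, ordered by the control level, with filled points for control and open points for experiment. Stmn3 and Tuba1a lead, Tubb2b is lowest in control, motor subunits are spread over the range, and the paired points of most members almost coincide on this scale.

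Across libraries of a group, tubulin transcripts went together more than other members did. Spearman's rho of log2(CPM + 1) had a median of 0.40 over the 28 tubulin pairs in the 66 control libraries, and 0.39 and 0.51 within the title sets. In the 38 experiment libraries it was 0.18, with 0.30 and 0.18 in the sets. The highest control values were 0.69 for Tuba1a with Tuba4a and 0.66 for Tuba1a with Tubb2a, and the highest experiment value was 0.65 for Tuba1a with Tubb3. These are descriptions: the genes share each library's total and depth, and some share sequence.

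The other classes showed no such cohesion. The median rho within them lay between -0.03 and 0.08 in either group, and over all 630 pairs it was 0.07 in control and 0.04 in experiment libraries. Stmn2 and Stmn3 went with the tubulins in control libraries, with rho of 0.55 for Stmn2 and Tubb3 and 0.61 for Stmn3 and Tuba4a. Map1b went opposite to these stathmins in control libraries, at -0.45 with Stmn2 and -0.42 with Stmn3. In experiment libraries no pair within that class was below -0.26. The values for these pairs pool the title sets, between which control levels differed. Pooled control CPM in sets 1 and 2 was 4847 and 3676 for Map1b, 787 and 989 for Stmn2, and 1338 and 1898 for Stmn3.

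**Figure D5:**
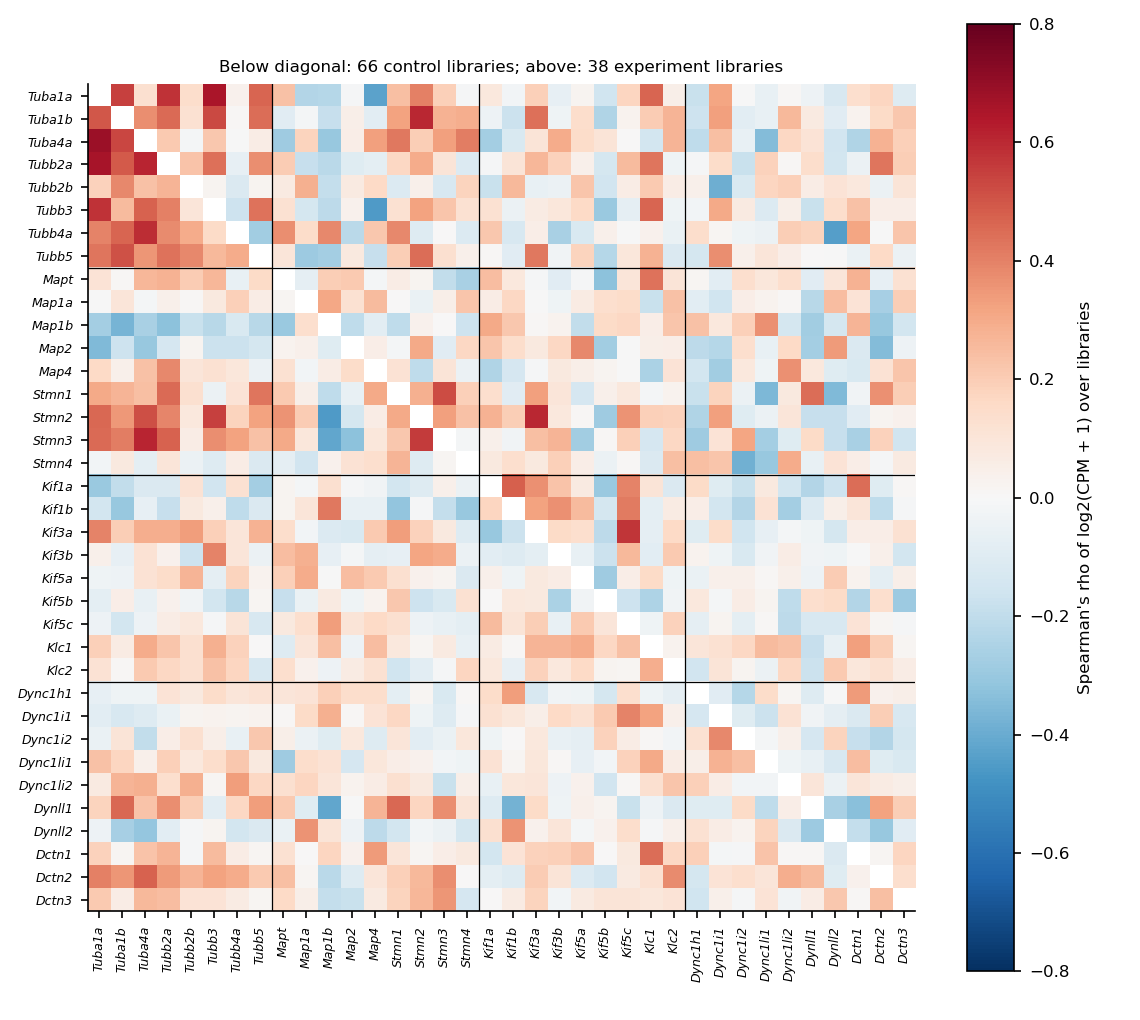
Spearman's rho of log2(CPM + 1) over libraries for every pair of members, control libraries below the diagonal and experiment libraries above it, with lines between the classes. The tubulin block at the upper left is reddest below the diagonal (median rho 0.40), and the kinesin and dynein blocks are pale.

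Other genes of the same pathway were counted from 5 lists with 111 genes. Of 4 expressed tubulins outside the members, 1 was higher and 3 lower by both weightings and 0 passed 1.5-fold. Of 15 expressed tubulin folding and modifying enzymes, 8 were higher and 6 lower, and 1 was past 1.5-fold, the folding cofactor Tbce, with a ratio of 1.501 that was 1.07 in set 1 and 2.00 in set 2. The list of other microtubule-binding, severing and tau kinase genes had 29 expressed members, 10 higher and 16 lower, with 2 past 1.5-fold, both higher. These were Camsap2, which caps and protects minus ends, and Clip1, which tracks growing plus ends.

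Camsap2 was at 0, 65.3 and 553 CPM against 0, 25.3 and 404, a ratio of 1.66 (1.58 to 1.73), with 1.42 and 1.66 in the title sets. Of 38 experiment libraries, 33 exceeded the control median. Clip1 was at 0, 218 and 681 CPM against 0, 134 and 358, a ratio of 1.52 (1.48 to 1.57), with 1.54 and 1.58 in the sets and 28 of 38 above. Both genes were thus higher in each title set, but for Camsap2 set 2 mixed unlike blocks. Its pooled log2 ratio was 0.02 in the first block of set 2 and 1.96 in the second. For Clip1 these values were 0.79 and 0.30. Without the 1 experiment library holding most of its counts, the pooled ratio of Camsap2 was 1.48 and that of Clip1 1.43, just under 1.5-fold. That of Tbce was 1.31.

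Of 20 expressed other kinesins and cargo adaptors, 9 were higher and 10 lower, with 1 higher and 3 lower past 1.5-fold. Trak2, an adaptor that links mitochondria to motors, had a ratio of 1.60, with 1.20 and 2.04 in the title sets and 1.40 without the 1 library holding most of its counts. The minus-end kinesin Kifc3 stood at 6.77 against 22.7 CPM pooled, a ratio of 0.299, with a count in 12 of 38 and 31 of 66 libraries. The title sets gave 0.671 and 0.130, and 1 library held 37.9% of the experiment counts, without which the ratio was 0.191. Kif26b was at 7.97 against 18.3 CPM, a ratio of 0.435, and 0.308 without the 1 library holding most of its counts. It had a count in 13 of 38 and 35 of 66 libraries. Kif17, named after its values were seen, had a ratio of 0.633, with 0.356 and 0.977 in the title sets, and 1 library held 46.6% of its experiment counts, without which it was 0.347. Kif17 had a count in 7 of 38 and 34 of 66 libraries. The experiment median of Kifc3, Kif26b and Kif17 was 0 CPM, so their ratios rest on few libraries. Of 20 other dynein, dynactin and adaptor genes, 5 were higher and 9 lower, and Hook3, an activating adaptor of dynein, was past 1.5-fold with a ratio of 0.593 (51.5 against 86.9 CPM) and 0.492 and 0.689 in the sets. The shares of all expressed genes past this fold are those given above for the members.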

How the data were processed

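RNA from single neurons was drawn into patch pipettes and turned into libraries with Smart-seq2 and the HyperPlus kit, as the labels' protocols say. For 104 libraries the authors deposited raw counts per gene in 1 table. The submitters' processing notes name STAR 2.5.3a, featureCounts 1.5.3 and mm10; annotation, strand and multimapping settings were not given in the sources used. The 92 spike-in rows stayed out of totals.

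All libraries passed a minimum of 50000 gene counts and 1000 detected genes, so 0 were dropped. Ratios of pooled CPM carry exact binomial 95% intervals, which cover counting error only, since reads carry no molecular identifiers. Group sums under 3 counts were raised to 3 for ratios. Past a fold means past it in the same direction by pooled and by equally weighted CPM. Titles gave the groups. The division of experiment titles into title sets rests on record order. Median-of-ratios size factors used 2399 genes. Shared words and beta-tubulin tails come from GENCODE M21, exon lengths from its merged exons. Alpha-tubulin sequences are not reported here. Of the pathway lists, up to 3 expressed genes per list were named, past 1.5-fold in the same direction in both title sets, ranked by the lesser absolute log2 ratio of both weightings. The members and lists were chosen with earlier results of these data known. Ratios were tested on simulated data. Python 3.11.15, pandas 2.3.3, scipy 1.17.1 and Biopython 1.88 were used.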

Additional observations from a re-analysis of the deposited data

How the results depend on the processing

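The main values use pooled CPM over all libraries: 0 members past 1.5-fold, 1 higher and 2 lower past the smaller limit (0.32 on the log2 scale). With libraries weighted equally alone, 1 member (Map1a) was past 1.5-fold higher (all expressed genes: 23.8%). Past the smaller limit 4 were higher and 3 lower (all expressed genes: 48.97%). The difference of mean log2(CPM + 1), where the median of all genes shifts to -0.38, gave a dynein and dynactin median of -0.13, with 2 members past 1.5-fold lower, and 2 higher and 7 lower past the smaller limit (of all expressed genes, 40.6% and 64.4% passed these folds there). A total without mitochondrial and ribosomal protein genes put 1 member past 1.5-fold higher (all expressed genes: 18.9%). Title set 1 gave a median of 0.14 for microtubule-associated proteins and stathmins, 1 member past 1.5-fold higher, and 2 higher and 1 lower past the smaller limit (all expressed genes: 26.3% and 44.6%). Title set 2 gave -0.16 for that median, 2 past 1.5-fold lower (Tubb4a and Dctn3), and 4 higher and 8 lower past the smaller limit (all expressed genes: 32.1% and 53.8%, against 18.8% and 39.6% in the main values). Leaving out the 25% of libraries highest in glial markers left 1 past 1.5-fold lower (Map4). Past the smaller limit 1 was higher and 4 lower, of which Tuba4a was 1 (all expressed genes: 23.5% and 45.3%). Thinning to 400000 counts put 1 past 1.5-fold higher (all expressed genes: 25.9%). Past the smaller limit 3 were higher and 2 lower (all expressed genes: 50.99%). Of the alternatives chosen after seeing the data, leaving out the 25% highest in mitochondrial share put 1 member past 1.5-fold higher (all expressed genes: 22.9%). Leaving out the 25% lowest in genes gave medians of -0.19 for microtubule-associated proteins and stathmins and -0.17 for kinesins. The median of all members was -0.18 there (-0.07 for all expressed genes). In these libraries 1 member was past 1.5-fold lower (all expressed genes: 23%). Past the smaller limit 3 were higher and 7 lower (all expressed genes: 45.6%). The cause of these moves was not tested. Of the counts, medians and shares, 310 values under alternatives stayed near the main value and 26 moved, and of single-gene ratios 135 stayed and 305 moved by more than their counting interval. Tubb5, Map1a, Kif5b and Dync1i1 were higher, and Tuba1a, Tuba4a and Stmn1 lower, in the pooled value and in each of the alternatives run. The same count over all expressed genes was not made, so nothing particular to these members is read from it. Single blocks were not among the alternatives. In the second block of set 1 the pooled log2 ratio was -0.15 for Kif5b and -0.07 for Tubb5. In the second block of set 2 that of Dync1i1 was -0.002. Counts were fewest, and counting intervals widest, for Tubb2b, Stmn4, Kif3b and Klc2. No paired analysis was possible because each group counts as 1 sample, and the numbers in the titles name libraries without tying an experiment library to a control library.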
